A study of Rattus norvegicus with 7 samples.

Results

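The 10 genes described here mark T cells and cytotoxic lymphocytes in whole rat lung. They were taken by name: every probe set whose single gene symbol in the platform annotation was one of the 10 was used, which gave 14 of the 31042 non-control probe sets on the array. Cd3e, Cd3g, Cd2, Cd8a and Lck were treated as T cell markers, and Gzmb, Prf1, Nkg7, Klrd1 and Il2rb as cytotoxic markers. The samples were right lungs, perfused, from 7 rats of the Dahl Salt Sensitive strain weighing 250 to 350 g, measured on Affymetrix arrays. All rats had breathed about 9.5% oxygen and received SU-5416, an inhibitor of VEGF receptors, a combination used as a rat model of pulmonary hypertension, and lungs were taken at 3.5 weeks. HSU names the 3 arrays of hypoxia with SU-5416 alone, and HSU_Sor the 4 arrays of rats that had also received Sorafenib, a kinase inhibitor that acts on RAF and on VEGF and PDGF receptors. The series text describes a normoxia and a hypoxia group as well, which were not analysed here, so every lung below carried the hypoxia and SU-5416 exposure. The design counts rats, so an array was read as 1 rat. Every HSU title has a letter b after its number and no HSU_Sor title does, so anything that this letter marks cannot be told apart from Sorafenib.

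T cells recognise peptides on other cells through a receptor that signals by way of the CD3 chains, among them CD3 epsilon and CD3 gamma, and the kinase LCK starts that signal. CD8 alpha binds MHC class I on the target cell, and CD2 is an adhesion receptor of T cells and NK cells. NK cells and killer T cells destroy a target by releasing granules that hold perforin (Prf1), which opens the membrane, and granzymes such as granzyme B (Gzmb), proteases that start cell death. NKG7 is a membrane protein of these granules, CD94 (Klrd1) pairs with NKG2 receptors that sense MHC class I, and IL2RB is the receptor chain through which IL-2 and IL-15 sustain cytotoxic cells. In the rat NK cells also carry CD8 alpha, so Cd8a alone does not separate T from NK cells. In whole lung, fewer cells of a type and less RNA per cell cannot be told apart.

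The promoters of Gzmb, Prf1 and Nkg7 are shown because these granule genes had a like pattern across the arrays, described further on. RefSeq's table of assembly GRCr8 held 9 promoter entries for 8 of the 10 genes, with 2 for Lck and none for Klrd1 and Il2rb. The 250 bases before the annotated start lie at chr15:34462470-34462719 on the minus strand for Gzmb, chr20:29788790-29789039 on the plus strand for Prf1 and chr1:102981247-102981496 on the plus strand for Nkg7. Each is written 5′ to 3′ on the gene's own strand, and the capitals mark TGTGGT or its reverse complement ACCACA, a core letter pattern of RUNX factors, which take part in the differentiation of killer lymphocytes.
Gzmb: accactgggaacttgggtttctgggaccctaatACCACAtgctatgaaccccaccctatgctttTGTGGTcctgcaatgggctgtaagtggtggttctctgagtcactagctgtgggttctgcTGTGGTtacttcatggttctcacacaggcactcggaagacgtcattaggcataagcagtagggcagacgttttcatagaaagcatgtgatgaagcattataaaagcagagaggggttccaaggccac
Prf1: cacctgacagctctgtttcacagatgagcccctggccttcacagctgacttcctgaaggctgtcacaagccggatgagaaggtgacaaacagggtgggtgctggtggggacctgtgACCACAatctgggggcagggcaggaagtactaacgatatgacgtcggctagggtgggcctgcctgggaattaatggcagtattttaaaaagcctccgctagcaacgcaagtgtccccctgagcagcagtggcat
Nkg7: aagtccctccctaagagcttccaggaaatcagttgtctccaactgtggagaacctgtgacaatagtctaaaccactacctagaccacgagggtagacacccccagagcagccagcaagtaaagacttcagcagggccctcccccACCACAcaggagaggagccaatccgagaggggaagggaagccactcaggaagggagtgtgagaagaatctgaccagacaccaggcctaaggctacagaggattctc

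The pattern was found 3 times before Gzmb and once each before Prf1 and Nkg7, and in 5 of the 9 member entries (also Cd2 and 1 entry of Lck), against 14.5% of all 33469 promoter entries over the same length. The 4 other patterns were searched on both strands. AGGAAG, a lymphoid form of the ETS pattern, was in 6 of the 9 entries against 29.5% of all. GGTGTG, a T-box half-site that can overlap TGTGGT, was in 1 of 9 (Cd2) against 15.4%. CCGGAAG, another ETS form, was in 0 of 9 against 7.27%, and TATAAA was in 1 (Gzmb) against 12.9%. These are letter matches, and no binding was measured.

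The deposited values are log2 expression values already normalized across arrays, with array medians between 3.59 and 3.68. Lung genes such as Sftpc (15.39 to 15.54) were high on all arrays, and 6 genes not expected in lung, among them Ins2, had a range of less than 0.2 over the 7 arrays. Of the red cell genes, Hbb, a globin, was at 12.11 and 11.59 on HSU_Sor 3 and 4 and at 14.23 to 14.75 on the other arrays, and Alas2, a heme synthesis enzyme, at 2.76 and 2.79 against 8.41 to 11.45. Of the markers of other leukocytes, the 9 macrophage genes above the filter, a mean over 3.64 (the median of all probe sets), had mean deviations between -0.19 and 0.74 in HSU and between -0.59 and 0.02 in HSU_Sor. The complement genes C1qa (-1.70), C1qb (-2.69) and C1qc (-1.68) were lower in HSU_Sor at an unadjusted p below 0.05 by limma. The others did not pass and went both ways. Cd68 (0.39), Csf1r (0.17), Cd14 (0.07) and Mrc1 (0.01) differed by positive values, Adgre1 (-0.20) and Fcgr1a (-0.21) by negative ones. The deviations of the 5 mast cell genes lay between 0.15 and 1.13 in HSU and between -0.67 and -0.07 in HSU_Sor. The part of these cell types in the results below was not tested.

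Of the T cell markers, the main CD3 epsilon probe set and that of CD2 hardly varied at all. The main Cd3e probe set was at 7.53 (1b), 7.56 (2b) and 7.58 (3b) among the HSU arrays and at 7.56, 7.48, 7.41 and 7.53 on HSU_Sor 1 to 4. Its whole range over the 7 arrays was 0.17 on the log2 scale. The groups overlapped, and the difference of HSU_Sor minus HSU was -0.06 ± 0.05 (SE; limma, adjusted p = 0.883). Values below are given in the same order of arrays. Cd2 was at 5.84, 5.88 and 5.83 in HSU and at 5.85, 5.82, 5.79 and 5.86 in HSU_Sor, a range of 0.09 and a difference of -0.02 ± 0.04 (adjusted p = 0.942). The deviations of Cd2 followed the mean deviation of the 6 genes not expected in lung, with a Pearson correlation of 0.97 over the 7 arrays (0.68 for Cd3e), points that share 1 array normalization. The second Cd3e probe set lay at 1.72 to 1.75 and the third of Cd8a at 2.06 to 2.11. A range below 0.2 was seen in 4 of the 14 member probe sets, against 53.4% of all probe sets on the array, and in 2 of the 10 used ones, against 16.6% of those above the filter on mean level. The 6 genes not expected in lung had ranges of 0.04 to 0.10.

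The 3 other T cell markers varied, with HSU 3b the highest array for each. Cd3g, the gamma chain of CD3, was at 6.68, 6.82 and 7.10 in HSU and at 6.68, 6.61, 6.67 and 6.35 in HSU_Sor. HSU 3b and 2b lay above every HSU_Sor array, while HSU 1b lay among them. The means were 6.87 ± 0.22 (SD, n = 3) and 6.58 ± 0.15 (SD, n = 4), and the difference of -0.29 ± 0.13 (SE) did not pass (limma, unadjusted p = 0.0634, adjusted p = 0.861). It was the smallest unadjusted p of the 10 genes. The kinase gene Lck was at 6.90, 7.17 and 7.70 in HSU and within 0.12 of itself in HSU_Sor, at 7.06, 7.02, 6.95 and 7.03. Its difference of -0.24 ± 0.18 (adjusted p = 0.874) shrank to -0.02 ± 0.09 without HSU replicate 3b. Cd8a ran the other way, at 6.76, 7.03 and 8.59 in HSU and at 8.21, 7.68, 7.97 and 6.99 in HSU_Sor. The lowest and the highest of its 7 values were both HSU arrays. Its difference was 0.25 ± 0.50 (adjusted p = 0.932) and 0.82 ± 0.35 without HSU replicate 3b (adjusted p = 0.98). A second, dimmer Cd8a probe set, below the filter, was at 2.08, 2.66 and 3.57 in HSU and at 2.67, 2.93, 2.66 and 2.66 in HSU_Sor, with HSU 1b lowest and HSU 3b highest once more.

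The cytotoxic markers varied more among the HSU arrays than between the groups. Gzmb, granzyme B, was at 8.0, 8.59 and 10.73 in the order HSU 1b, 2b, 3b, and at 9.42, 8.56, 8.66 and 8.03 on HSU_Sor 1 to 4. HSU 3b was 6.63-fold above HSU 1b and 2.47-fold above the next highest array, HSU_Sor 1. The group means of 9.11 ± 1.44 (SD, n = 3) and 8.67 ± 0.58 (SD, n = 4) differed by -0.44 ± 0.68 (SE; limma, adjusted p = 0.918). The second Gzmb probe set gave the same order at its ends, from 5.77 on HSU 1b to 10.08 on HSU 3b with 8.79 on HSU_Sor 1, a 19.8-fold spread within HSU, and a difference of -0.00 ± 0.98 (SE) between the groups. Its correlation with the first was 0.94 over the 7 arrays.

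Prf1, perforin, was at 10.24, 10.82 and 11.90 in HSU and at 11.60, 10.78, 10.76 and 10.79 in HSU_Sor. The group means, 10.98 ± 0.85 (SD, n = 3) and 10.98 ± 0.41 (SD, n = 4), were equal to 2 decimals. HSU_Sor 1 stood 0.30 below HSU 3b, and the other 3 HSU_Sor arrays lay close together. Nkg7, the granule membrane protein, had the widest spread of the used probe sets, at 4.21, 4.76 and 7.80 in HSU and at 5.35, 4.76, 4.75 and 4.42 in HSU_Sor. HSU 3b was 12-fold above HSU 1b and 5.44-fold above HSU_Sor 1. The difference between the group means, -0.77 ± 0.85 (SE, adjusted p = 0.9), was smaller than the SD of 1.93 among the HSU arrays.

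The receptor genes had HSU 3b as their highest array too. Il2rb was at 5.42, 5.45 and 6.72 in HSU and at 6.05, 5.17, 5.51 and 5.41 in HSU_Sor, a difference of -0.33 ± 0.37 (limma, adjusted p = 0.901). HSU 3b and HSU_Sor 1 were again the 2 highest arrays. Klrd1, which encodes CD94, was at 5.41, 6.98 and 8.09 in HSU and at 7.72, 7.02, 7.75 and 7.27 in HSU_Sor. HSU 1b lay below every other array and HSU 3b above all others, so the HSU_Sor arrays fell between 2 HSU extremes. Its difference of 0.62 ± 0.60 (adjusted p = 0.892) was the largest positive one among the 10 genes.

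**Figure D1:**
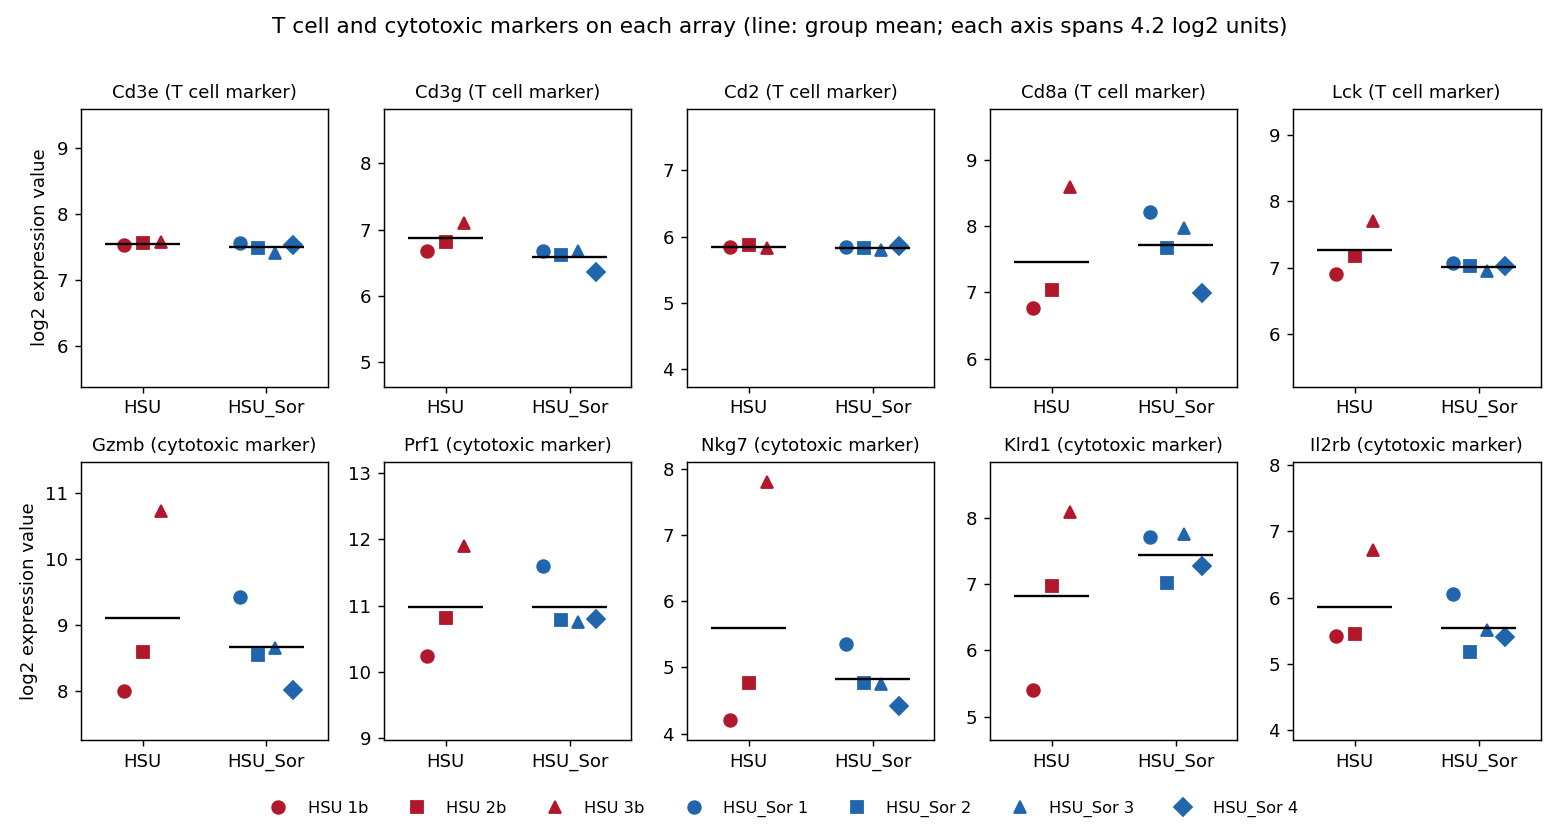
Log2 expression value of each of the 10 genes (1 probe set each) on the 3 HSU arrays (red) and the 4 HSU_Sor arrays (blue), with a line at each group mean. Cd3e and Cd2 are flat, while HSU 3b (red triangle) is the highest array for all 5 cytotoxic markers and HSU 1b (red circle) the lowest for 4 of them.

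None of the 10 genes passed. After adjustment limma left 0 of 15521 probe sets below 0.05 (0%), and at an unadjusted p below 0.05 there were 0 of the 10 members by limma, against 6% of all probe sets. The SAM statistic that the series text names called 106 of the 15521 probe sets at its delta and minimum fold (9 higher and 97 lower). It called 0 of the 10 members, which says little as so few of all probe sets were called. Groups were without overlap for 0 of the 10, against 5.26% of all probe sets. The median difference was -0.06 for the T cell markers and -0.33 for the cytotoxic markers on the log2 scale, beside -0.01 over all probe sets tested. In each set 4 genes were lower and 1 higher in HSU_Sor, the higher ones being Cd8a and Klrd1. The median SD among HSU arrays was 1.35 for the 5 cytotoxic markers and 0.22 for the 5 T cell markers, beside 0.11 over all probe sets. Among HSU_Sor arrays it was 0.39 and 0.07, beside 0.14. With 3 and 4 arrays and spreads of this size, the intervals of the cytotoxic markers were wide in both directions.

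Leaving out 1 array, HSU 3b, turned the sign of 4 of the 5 cytotoxic markers, and of 1691 of all 15521 probe sets. HSU 3b was the highest array for all 5 markers, so leaving it out could only raise their differences. The share over all probe sets is therefore not a like comparison, and nothing is read from this count. Prf1, 1 of the 4, had started near 0 (-0.003 ± 0.42, SE). Klrd1 was higher in HSU_Sor with that array (0.62) and without it. HSU 3b was the highest of the 7 arrays for 9 of the 10 members (all but Cd2), against 16.1% of all probe sets. Without HSU replicate 3b the median difference of the cytotoxic markers was 0.37 in place of -0.33, and Gzmb (0.37 ± 0.41, SE), Prf1 (0.46 ± 0.31), Nkg7 (0.34 ± 0.29) and Il2rb (0.10 ± 0.24) each turned from lower to higher in HSU_Sor. The T cell median was -0.06 and then -0.03, but it rested on the near-constant probe sets of Cd3e and Cd2. Over Cd3g, Cd8a and Lck it was -0.24 and then -0.02. Klrd1 differed by 1.25 ± 0.48 without that array (limma, unadjusted p = 0.0442, adjusted p = 0.98). It was then the 1 member of 10 at an unadjusted p below 0.05, against 4.5% of all probe sets, and the 1 member with every HSU_Sor array above both HSU arrays, against 4.74%. Without HSU replicate 1b, by contrast, Klrd1 differed by -0.09 and 2 of the 10 members had an unadjusted p below 0.05, Cd3g (-0.38) and Lck (-0.42), against 5.33% of all probe sets. With HSU arrays 1b and 2b left out together, so that HSU 3b alone stood for its group and was assumed to vary like the others, 5 of the 10 did (Lck, Nkg7, Gzmb, Il2rb and Cd3g), against 7.62% of all probe sets, and the cytotoxic median was -1.19. That setting sets the array on which 9 of the 10 were highest against the rest, so nothing is read from this count.

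**Figure D2:**
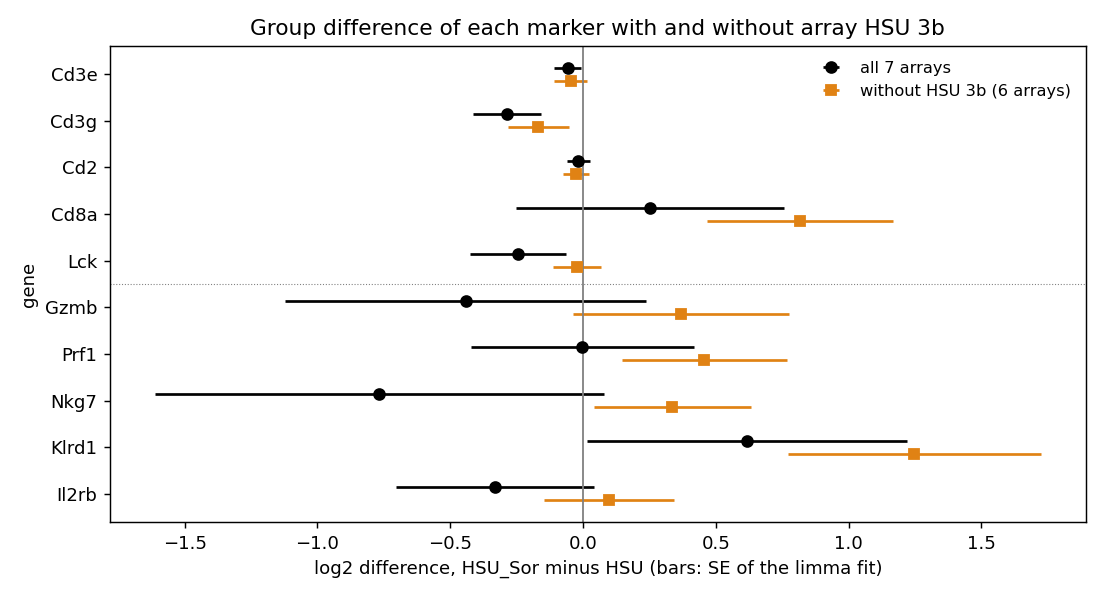
Log2 difference of HSU_Sor minus HSU for each gene with the SE of the limma fit, over all 7 arrays (black) and without HSU 3b (orange). Without that array Gzmb, Prf1, Nkg7 and Il2rb move from below 0 to above 0, and Klrd1 from 0.62 to 1.25. HSU 3b was the highest array for all 5 of these, so leaving it out could only raise them.

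T cell and cytotoxic markers were compared array by array as mean deviations from each gene's own 7-array mean, since levels of different probe sets are not comparable. The cytotoxic deviation was -0.91, -0.25 and 1.48 for HSU and 0.46, -0.31, -0.08 and -0.39 for HSU_Sor. The T cell deviation was -0.22, -0.07 and 0.40 in HSU and 0.12, -0.03, -0.00 and -0.20 in HSU_Sor. It was about 0 on HSU_Sor 3 and had the sign of the cytotoxic deviation on the other arrays. Its size is held down by the near-constant Cd3e and Cd2. Over the 3 T cell markers that varied it was -0.36, -0.13 and 0.66 in HSU and 0.18, -0.04, 0.05 and -0.35 in HSU_Sor. On HSU_Sor 3 this sign was opposite to that of the cytotoxic markers. The T cell minus cytotoxic deviation, over all 5 genes of each set, averaged -0.07 for HSU, with an SD of 0.91 over 3 arrays, and 0.05 for HSU_Sor, with an SD of 0.27 over 4, and the gap between the groups of 0.11 was far inside the spread within HSU. The extremes, 0.70 on HSU 1b and -1.08 on HSU 3b, were both HSU arrays. With HSU replicate 3b left out the gap was -0.39.

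The 5 cytotoxic markers varied together, with Pearson correlations over the 7 arrays between 0.57 and 0.97 for their 10 pairs (median 0.88). Without HSU 3b the median was 0.75 over 6 arrays. The highest pair was Gzmb with Nkg7 (0.97, and 0.99 without HSU 3b). Of the T cell markers Cd8a (0.88 with Gzmb), Lck (0.95 with Nkg7) and Cd3g (0.82 with Gzmb) had their highest correlations with a cytotoxic marker as given. Without HSU 3b these pairs had 0.86, 0.49 and 0.45. The arrays share 1 normalization, and the points include both groups.

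Some other genes of killer lymphocytes had the same high arrays. Of 33 further NK and cytotoxic genes written down, 26 were on the array and 16 of these had a range below 0.2, among them the NK receptors Klrk1, Ncr1, Klrc1 and Klrc2 and the cytokine Ifng. Gzma, granzyme A, was at 8.10, 9.47 and 11.73 in HSU and at 10.74, 9.96, 9.45 and 9.23 in HSU_Sor. Gzmk, Gzmm, Klrb1a (the NK receptor NKR-P1A) and Ccl5, a chemokine of activated lymphocytes, were also highest on HSU 3b and second highest on HSU_Sor 1. These 5, the ones highest on HSU 3b of the 13 above the filter, were picked after their values were seen. Of all probe sets 16.1% were highest there. The rest of the 13 were highest on other arrays, such as Fcgr3a, Tyrobp and Hcst on HSU_Sor 4, Serpinb9 on HSU_Sor 2 and Ctsc on HSU 1b. The mean deviation of all 13 was 0.48 on HSU 3b, 0.23 on HSU_Sor 1 and -0.36 on HSU 1b. HSU 3b exceeded HSU 1b 12.3-fold for Gzma, 3.38-fold for Gzmk, 4.35-fold for Gzmm, 4.36-fold for Klrb1a and 2.65-fold for Ccl5. Their group differences were between -0.25 for Gzmm and 0.35 for Klrb1a, with SEs of 0.38 or more. Of the 26 genes 1 was higher at an unadjusted p below 0.05 and 0 lower: Hcst, the adaptor DAP10, at 0.23 ± 0.10 (limma, adjusted p = 0.83). Of all probe sets above the filter 6% had such a p in either direction, while 13 of the 26 genes lay below it. The median of the 26 was -0.00.

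Of the T cell identity genes above the filter 1 of 11 was highest on HSU 3b, Zap70, against 16.1% of all probe sets. On the array were 20 of the 25 written down, and 9 had a range below 0.2, among them Cd3d, Cd4, Cd8b, Cd5 and Cd28, which lay at 1.99 to 2.96 on the log2 scale. The mean deviation of the 11 genes above the filter was 0.03 on HSU 3b and ran from -0.12 to 0.18 over all arrays. It leaves out Cd3d, Cd4, Cd8b, Cd5 and Cd28 and includes genes of other cells as well, such as Thy1 and Lcp2. Thy1 (-0.47 ± 0.17, SE; limma, adjusted p = 0.812) and Cd247 (-0.46 ± 0.18, adjusted p = 0.812) had an unadjusted p below 0.05 and 0 genes were higher at that threshold. These are 2 of the 20, of which 9 lay below the filter, against 6% of all probe sets above it in either direction. With the mean of each gene's probe sets the differences were -0.25 for Thy1 and -0.24 for Cd247. Cd247 encodes the zeta chain of the T cell receptor complex, which NK cells use as well, and was at 7.60, 8.38 and 8.09 in HSU and 7.62, 7.40, 7.62 and 7.62 in HSU_Sor. Thy1, a surface glycoprotein of T cells, fibroblasts and nerve, was at 8.98, 8.31 and 8.56 in HSU and at 7.90 to 8.28 in HSU_Sor, without overlap. Lcp2, an adaptor of T cell receptor signalling and of myeloid cells, differed by 0.40 ± 0.20, and by 0.25 with the mean of its probe sets. It was without overlap in the other direction, at 8.54, 8.30 and 8.47 in HSU and at 8.56 to 9.33 in HSU_Sor. Thy1 and Lcp2 were the 2 of the 20 without overlap, against 5.26% of all probe sets above the filter.

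On the cytokine side of the IL2RB pathway 12 of 17 genes were measured, 3 of them below the filter. With limma 0 of the 12 had an unadjusted p below 0.05, against 6% of all probe sets above the filter. The differences went both ways around a median of -0.01. Il15, the cytokine that sustains NK cells, differed by 0.32 ± 0.16 (SE; limma, adjusted p = 0.874), from 9.14, 9.45 and 9.45 in HSU to 9.45, 9.85, 9.45 and 9.94 in HSU_Sor. Il2rg, the shared gamma chain with which IL2RB pairs, differed by -0.09 ± 0.14. Il2ra, the alpha chain, was at 2.05 to 2.11 on all arrays. The signal transducer Stat5a differed by -0.04 and Il4r by -0.28 ± 0.32.

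**Figure D3:**
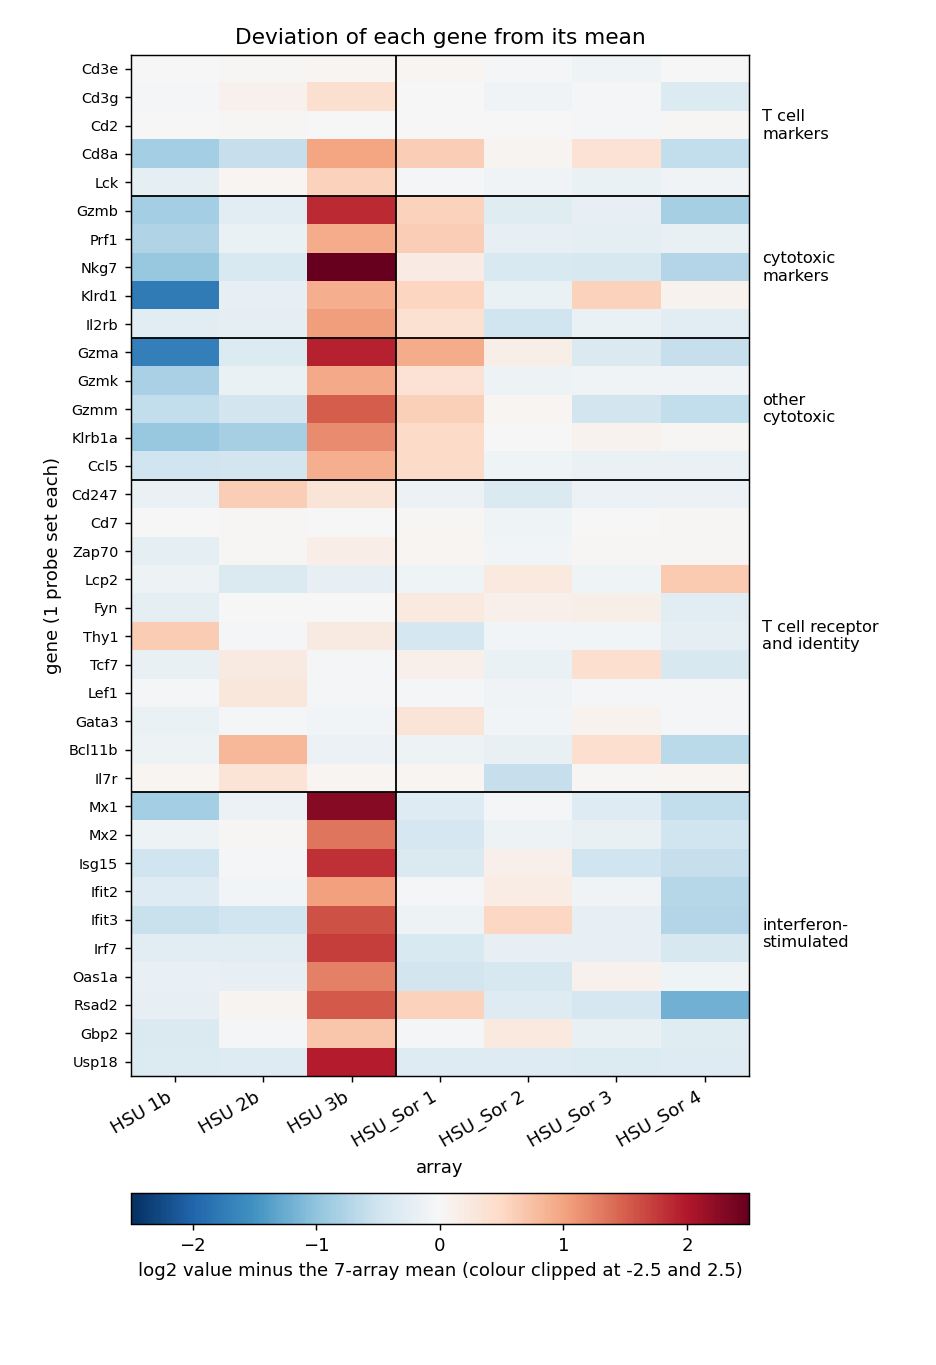
Deviation of each gene from its own 7-array mean on the log2 scale, for the 10 members, 5 other cytotoxic genes, T cell receptor and identity genes and interferon-stimulated genes above the filter. The HSU 3b column is red for the cytotoxic and interferon-stimulated genes, and HSU_Sor 1 is red for the cytotoxic genes. The 5 other cytotoxic genes were picked as those highest on HSU 3b, so their red there is given by that choice. The NK and cytotoxic genes highest on other arrays are not shown, and the interferon list was added after the values were seen. Cd3g, Cd8a and Lck are also highest on HSU 3b, and of the 11 T cell receptor and identity genes 1 is.

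Genes that respond to interferon were also highest on HSU 3b. The 10 measured above the filter had a mean deviation of 1.52 on that array and of -0.55 to -0.03 on the other 6. All 10 were highest on HSU 3b, against 16.1% of all probe sets. On HSU_Sor 1, the array with the second highest cytotoxic deviation, the interferon-stimulated genes were at -0.19. The 8 MHC class II genes had a mean deviation of 0.45 on HSU 3b and of -0.16 to 0.14 on the others. Of these 8, 5 were highest on HSU 3b, against 16.1% of all probe sets. By limma 5 were lower in HSU_Sor at an unadjusted p below 0.05, against 6% of all probe sets in either direction. The interferon and MHC class II lists were added after the values were seen. The macrophage genes stood at 0.74 on HSU 3b and 0.56 on HSU 1b. Pan-leukocyte genes had a mean deviation of 0.16 on HSU 3b and of 0.01 on HSU_Sor 1, with 12 genes above the filter and the lowest value, -0.27, on HSU 2b. Of the 7 B and plasma cell genes on the array, 5 had a range below 0.2, and Jchain, the joining chain of secreted antibody, differed by 0.97 ± 0.33 (SE; limma, adjusted p = 0.812). With the mean of its probe sets Jchain differed by 0.51. The part of interferon or of other leukocytes in the cytotoxic values was not tested.

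**Figure D4:**
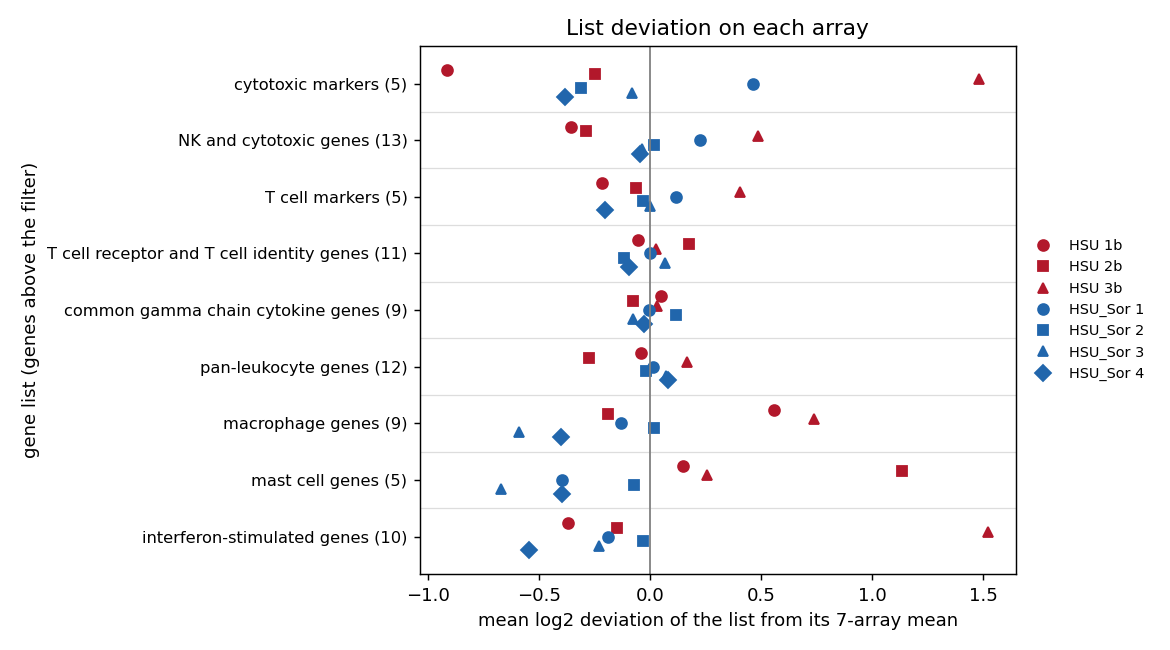
Mean log2 deviation of gene lists from their 7-array means, 1 point per array, with the number of genes above the filter in brackets. HSU 3b lies at 1.48 for the cytotoxic markers, 1.52 for interferon-stimulated genes, 0.40 for the T cell markers and 0.03 for T cell receptor and identity genes.

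Outside these lists, the 6 genes whose values went most closely with the mean deviation of the 10 members, of 9200 ranked, were Erc1 (Pearson correlation 0.96 over 7 arrays), Chmp3 (0.95), Chd2 (0.95), LOC100911177 (0.95), Nfe2 (0.94) and Rnase6 (0.94). Without HSU 3b these were between 0.78 and 0.89. All 6 were highest on HSU 3b. Erc1 was at 8.63, 8.66 and 9.14 in HSU and at 8.64 to 8.81 in HSU_Sor, a much narrower range than that of the granule genes. Chd2 was near-constant, with a range of 0.07, below 0.2. Chmp3, a subunit of the membrane-remodelling ESCRT machinery, lies 3 protein-coding genes from Cd8a in the RefSeq order of assembly GRCr8 and had a correlation of 0.95 with it, a gene picked by its likeness. The other measured genes within 6 places of Cd8a had correlations from -0.58 (Cd8b) to 0.61 (Krcc1) with it. Cd8b had a range of only 0.05, and Fabp1 and Smyd1 of 0.09 and 0.08. The correlations of these 3 are those of near-constant values, and no direction is read from them.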

How the data were processed

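Total RNA of 7 lungs (3 HSU, 4 HSU_Sor) was hybridised as biotin-labelled cRNA, per the labels' protocols. Values are log2 as the authors deposited them, summarised by probe set and normalized between arrays. The submitters' processing notes list RMA and GCRMA without saying which of them applies. After this processing a probe set without signal holds a near-constant value that differs between probe sets, so a filter on the mean does not remove all of them.

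The 57 control probe sets were left out. Of 31042 others, 20826 had 1 gene symbol, 436 several and 9780 none. RefSeq gene identifiers matched 20758 and changed 0 symbols. HSU_Sor minus HSU was fitted with limma 3.58.1 (R 4.3.3, lmFit and eBayes, two-sided, no covariate) on the 15521 probe sets with a mean above the median of 3.64, with Benjamini-Hochberg adjustment over all of them. Dimmer probe sets were read from the same fit over all 31042. Where a gene had several probe sets, the brightest on average was used. The code was tested on simulated data.

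Named genes were all members and, of 3 pathway lists, those above the filter among the 4 with the smallest unadjusted p. Other genes of these lists were named after their values were seen or as markers or partners. Among them were Gzma, Gzmk, Gzmm, Klrb1a, Ccl5, Zap70, Il2rg and Il2ra. The closest genes were ranked by correlation. The members and lists were chosen with earlier results of these data known. The interferon, MHC class II and red cell lists were added after the values were seen, as was the range of 0.2. Array number limits the precision, and p-values measure only the spread between these arrays. Alternatives were other filters, quantile normalization, median centring, an intensity trend, array weights, the mean of probe sets, a replicate block, SAM and arrays left out.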

Additional observations from a re-analysis of the deposited data

Results flagged for a closer look

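Within the 4 HSU_Sor arrays, 6 of 35 values tested had 1 array far from the rest, as the gap to its nearest neighbour divided by the group's range was above the critical value of Dixon's test. Chance gives such a gap in about 1 of 20 groups, and the genes vary together. HSU_Sor 1 was the high array for Prf1 (0.958), Ccl5 (0.904) and Gzmk (0.892), the same array that came second to HSU 3b for most cytotoxic genes. The second Cd8a probe set (0.957) was highest on HSU_Sor 2, over a range of 0.27 on the log2 scale. Cd247 (1) was lowest on HSU_Sor 2, with equal values on the other 3 arrays, and Il4r (0.831) was lowest on HSU_Sor 4. Groups of 3 arrays were not tested this way, so HSU 3b does not appear here.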

How the results depend on the processing

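No member passed the adjusted threshold with limma under any alternative in which it was tested. SAM called 0 members, and only 106 of the 15521 probe sets. The number of probe sets past the adjusted threshold, 0, became 6 with the mean above the 75th percentile (which left 1 of the 10 members, Prf1, so no medians), 10 with HSU arrays 1b and 2b left out together, 7 with HSU 3b and HSU_Sor 1 left out together (chosen after seeing the data) and 106 by SAM. It ran from 0 to 6 with 1 array left out, with 6 without HSU 3b. Members at an unadjusted p below 0.05 numbered 0 to 2 of 10 with 1 array left out, against 4.5% to 6% of all probe sets, and 5 without HSU 1b and 2b, against 7.62%. The T cell median, -0.10 to -0.03 with 1 array left out, was -0.52 without HSU 1b and 2b. The cytotoxic median, -0.55 to 0.37 with 1 array left out, was -1.19 there, and the T cell minus cytotoxic difference, -0.39 to 0.50, was 1.13.

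Signs turned as follows. The T cell minus cytotoxic difference, 0.11, was -0.03 with array weights and -0.26 without HSU 3b and HSU_Sor 1, where the cytotoxic median was 0.16. Prf1, near 0, was 0.021 after quantile normalization, 0.013 after median centring, 0.19 with array weights, 0.060 with the replicate block, 0.20 without HSU_Sor 3 and 4 and 0.25 without HSU 3b and HSU_Sor 1. Without HSU 1b and 2b, Cd2 was 0.0036, Cd8a -0.88, Klrd1 -0.65, Ccl5 -0.91, Gzma -1.88, Gzmk -0.93 and Klrb1a -1.03. Without HSU_Sor 3 and 4, Gzmm was 0.18, Il2rg 0.054 and Il4r 0.046. Without HSU 3b and HSU_Sor 1, Gzmb was 0.12, Nkg7 0.16 and Gzmm 0.20. With 1 array left out, the ranges that crossed 0 were -1.0 to 0.37 for Gzmb, -1.46 to 0.34 for Nkg7, -0.38 to 0.46 for Prf1, -0.55 to 0.10 for Il2rb, -0.093 to 1.25 for Klrd1, -0.10 to 0.82 for Cd8a, -0.22 to 0.48 for Ccl5, -0.76 to 1.05 for Gzma, -0.38 to 0.50 for Gzmk, -0.63 to 0.43 for Gzmm, -0.025 to 1.04 for Klrb1a, -0.17 to 0.021 for Il2rg and -0.43 to 0.0087 for Il4r. Beyond the arrays removed, the cause was not tested.

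Same-numbered arrays of both groups deviated together with correlations of -0.06, 0.18 and 0.14, so the numbers were not taken as pairs. HSU_Sor 4 has no partner and adds nothing to the blocked difference, so blocked differences equal those without HSU_Sor 4. With the replicate block the cytotoxic median was -0.23, the T cell median -0.07 and Il4r 0.0087, and 0 probe sets and 0 members passed with limma.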
